A study of Mus musculus with 6 samples.

Results

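The longest unbroken stretches of captured methylated DNA on the autosomes of mouse lung are described here. The peaks of 6 libraries were merged on chromosomes 1 to 19 where they shared or touched at 1 bp, and merged regions of 2500 bp or more were kept. This gave 164 regions of 158077 (0.104%), which held 575 kb of the 82.4 Mb covered by all merged autosomal regions (0.698%). Their widths were 2508 to 9160 bp with a median of 3065 bp, against a median of 457 bp in the other merged regions. Since peak widths chose the regions, their width, cover and score are a description and carry no test.

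Genomic DNA came from whole, unsorted lungs of mice aged 12 to 16 months, 3 wild type and 3 transgenic, each lung being a biological replicate by the series' design text. The transgene, written SPC-DNMTdelta3B/DG in the genotype labels (SPC-DNMTdeltaB/DG for transgenic replicate 2) and ΔDNMT3B4-del in the series title, is a deletion form of the DNA methyltransferase DNMT3B under the surfactant protein C (SPC) promoter. That promoter is active in alveolar type 2 cells, which are one of many cell types in a lung, so a change in those cells is diluted in whole-lung DNA. Wild-type mice carried no transgene by the labels, and neither founder line nor sex of the animals is stated in the labels. The study compared lung DNA methylation between these groups.

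In mammals methyl groups sit mostly on the cytosine of CpG dinucleotides. A methyl-CpG-binding-domain protein binds fragments that carry several methylated CpGs, so captured reads pile up where CpGs are both frequent and methylated, and a CpG-poor methylated stretch or an unmethylated CpG island gives little signal. Gene bodies, silenced repeats, multicopy gene arrays and one parental copy of imprinted genes are known places of methylation in somatic tissue.

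The base sequence of the regions themselves was not used here, so their CpG content was not computed, and RefSeq promoter windows are shown for the few regions that touch one. Of 31396 autosomal RefSeq promoters (build GRCm38.p6, the assembly behind mm10), 11 touched a long region, some by less than their full length. The upstream 250 bases of 4 are printed 5′ to 3′ on the gene's strand with every CG in capitals: the imprinted gene Gnas, the non-coding genes Gm36734 and Gm36816 for their internal repeats, and Duxf3 of the Dux array for its low CpG count.
Gnas, chr2:174284070-174284319, plus strand: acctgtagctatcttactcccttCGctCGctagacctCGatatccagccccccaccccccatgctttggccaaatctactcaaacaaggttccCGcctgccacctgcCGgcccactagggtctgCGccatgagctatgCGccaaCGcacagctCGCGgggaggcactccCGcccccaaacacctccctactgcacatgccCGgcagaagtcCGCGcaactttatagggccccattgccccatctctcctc
Gm36734, chr13:71020422-71020671, minus strand: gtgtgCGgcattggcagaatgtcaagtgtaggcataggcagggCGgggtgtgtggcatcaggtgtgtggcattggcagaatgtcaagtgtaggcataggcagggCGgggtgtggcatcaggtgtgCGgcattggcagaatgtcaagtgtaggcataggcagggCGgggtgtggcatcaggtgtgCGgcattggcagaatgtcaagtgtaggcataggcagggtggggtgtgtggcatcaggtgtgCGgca
Gm36816, chr6:67008988-67009237, minus strand: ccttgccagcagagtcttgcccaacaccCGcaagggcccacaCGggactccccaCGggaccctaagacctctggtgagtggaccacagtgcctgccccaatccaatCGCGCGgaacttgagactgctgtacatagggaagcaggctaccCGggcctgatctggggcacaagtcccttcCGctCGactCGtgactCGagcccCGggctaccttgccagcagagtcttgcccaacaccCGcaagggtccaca
Duxf3, chr10:58233090-58233339, minus strand: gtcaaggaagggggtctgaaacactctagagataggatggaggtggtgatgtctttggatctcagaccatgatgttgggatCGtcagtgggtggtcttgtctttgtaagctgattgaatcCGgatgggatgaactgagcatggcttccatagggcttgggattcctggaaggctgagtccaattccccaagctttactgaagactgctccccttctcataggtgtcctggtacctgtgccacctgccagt
These windows held 14 CG in Gnas, 7 in Gm36734, 13 in Gm36816 and 2 in Duxf3. Over the 11 promoters the count ran from 0 to 39 with a median of 7, and 5 held 10 or more. All autosomal promoters had a median of 6, 92.4% of them held at least 1 CG, and 38.3% held 10 or more. Of 2134 promoters in another merged region, 26.6% held 10 or more. The Gm36734 window contains an exact copy of a 59-base stretch at a distance of 59 bases, and the Gm36816 window a 36-base stretch repeated at 208 bases. An exact repeat of 30 bases or more was found in 158 of the 31396 windows (0.503%), and repeats were searched after these 2 sequences had been seen.

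A long region over Rtl1, an imprinted retrotransposon-derived gene, also covered the genes of 2 microRNAs. They are shown because the 4 mature arms place the captured DNA inside this imprinted microRNA cluster. The seed (bases 2 to 8) is in capitals, from RefSeq (GRCm38.p6).
miR-127-5p: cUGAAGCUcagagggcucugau
miR-127-3p: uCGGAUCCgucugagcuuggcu
miR-434-5p: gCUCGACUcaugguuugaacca
miR-434-3p: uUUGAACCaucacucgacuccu
No seed was shared among these arms.

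Most long regions were found in nearly every library, but few at full width. A peak lay in them in all 6 lists at 103 regions and in 5 lists at 36, and only 2 regions rested on a single list. Among other merged regions 10.5% had a peak in all 6 lists and 28.6% in 1 list. A single peak of 2500 bp or more was present in no list at 30 of the regions, where shorter overlapping peaks joined, in 1 list at 55, and in all 6 lists at 4. At least 80% of the width was covered in every list at 4 regions, and at least 50% at 17.

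The libraries covered the long regions in the order of how much they covered anywhere. Of the bases in long regions, transgenic replicates 1, 2 and 3 covered 90.5%, 80.2% and 63.3%, and wild-type replicates 1, 2 and 3 covered 52.9%, 80.5% and 19.4%. The groups overlapped, since wild-type replicate 2 stood between transgenic replicates 1 and 2 and above transgenic replicate 3. The same lists covered 60.1, 51.0 and 33.2 Mb (transgenic) and 24.7, 51.4 and 6.37 Mb (wild type) of the autosomes, with 28399 peaks in the shortest list, wild-type replicate 3, and 114780 in the longest, transgenic replicate 1. Read depth per library is unknown, and its part in the cover was not tested. Wild-type replicate 3 had no peak at 54 of the long regions and wild-type replicate 1 none at 20, against 3 for transgenic replicate 1.

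**Figure D1:**
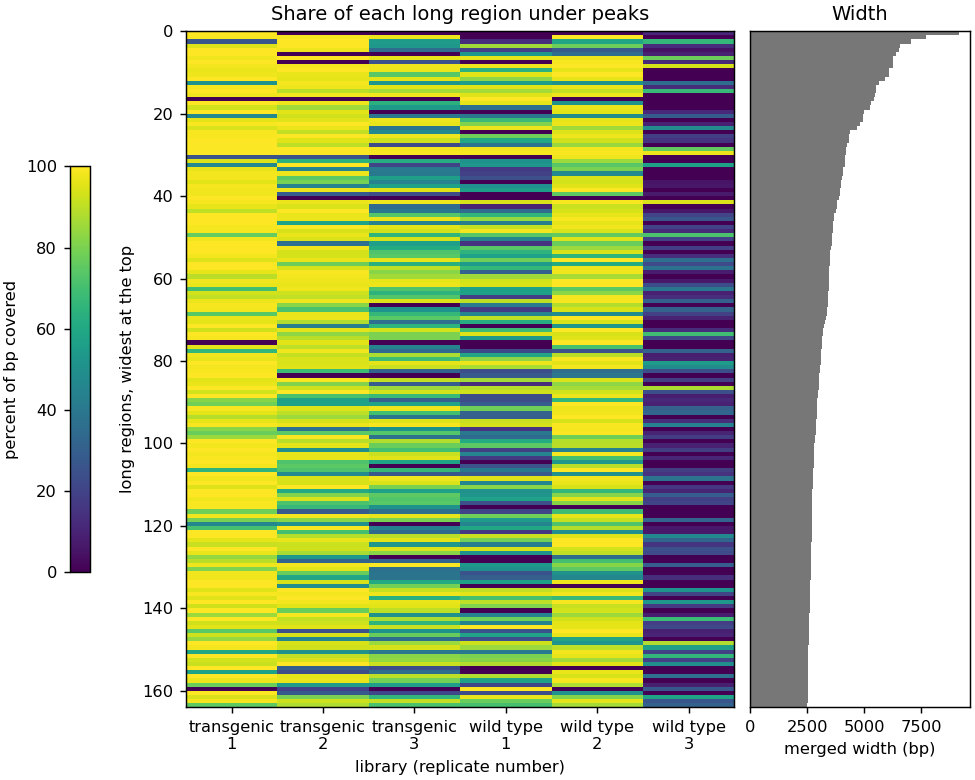
Percent of each of the 164 long regions covered by peaks, by library. Median cover was 97.9%, 93.5% and 70.6% in transgenic and 54.5%, 93.6% and 11.3% in wild-type replicates 1, 2 and 3, so wild-type replicate 2 sits with the transgenic libraries and wild-type replicate 3 lowest.

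Peak scores are the authors' peak caller's own values, with a floor of 50 and no scaling between libraries. Long regions with a peak in a list stood above the middle of that list's scores by median. Over regions with a peak in the list, the highest score had a median percentile of 94.7, 93.3 and 91.5 for transgenic replicates 1 to 3. For wild-type replicates 1 to 3 it was 85.3, 93.7 and 68.9. The highest score of joined peaks was ranked against single peaks, which raises it. Strength and width did not always go together: 19 long regions had no score of 150 or more in any list, while 46 had a score of at least 1000 in some list and 2 in all 6. The highest score came from transgenic replicate 1, the longest list, at 141 regions (86.0%), and 64.5% of other regions also had theirs there. By median score the libraries ran from transgenic replicate 1 through transgenic replicate 2, wild-type replicate 2, transgenic replicate 3 and wild-type replicate 1 to wild-type replicate 3, and 60 of the 164 regions followed that order in full.

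**Figure D2:**
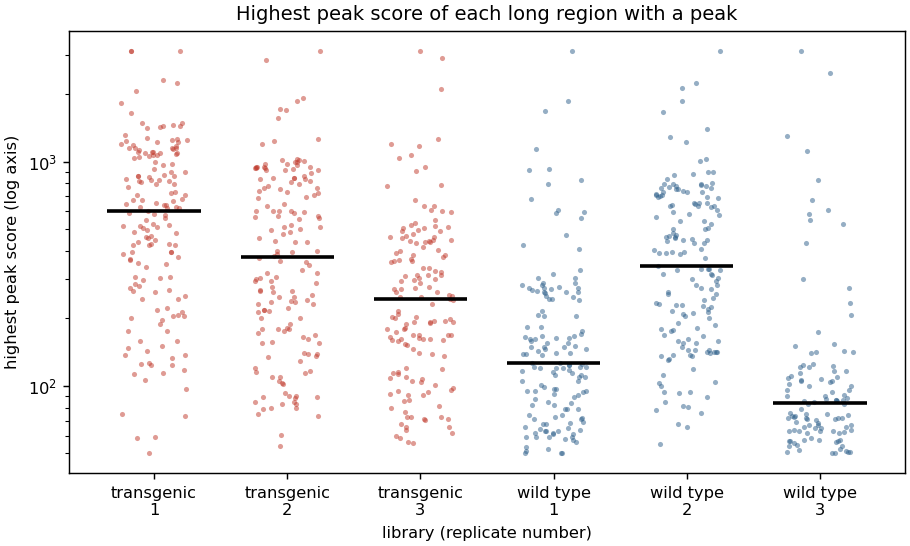
Highest peak score in each long region by library, on a log axis, where regions with no peak in a library are not drawn. Medians over regions with a peak were 599, 376 and 244 in transgenic and 126, 344 and 83.5 in wild-type replicates 1, 2 and 3.

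A comparison of the groups that the choice of regions does not fix was made by defining long regions from the other 5 lists and measuring their cover in the library left out. Each library thus had its own set of regions, 115, 146 and 164 for transgenic and 160, 138 and 164 for wild-type replicates 1 to 3. The permutation treats these values as exchangeable although the sets differ. Cover was 88.3%, 78.9% and 63.3% in transgenic replicates 1, 2 and 3 and 51.9%, 79.6% and 19.4% in wild-type replicates 1, 2 and 3. The mean was 76.8 ± 12.7% (SD, n = 3) in transgenic and 50.3 ± 30.1% (SD, n = 3) in wild-type lungs. This difference of 26.5 percentage points was not distinguished from the spread between animals (two-sided exact permutation p = 0.30, where 3 against 3 cannot go below 0.10). It was 11.1 points without wild-type replicate 3 and 41.2 points without wild-type replicate 2, so most of it went with wild-type replicate 3, and wild-type replicate 2 lowered it. Regions of 1000 to under 2500 bp, with 76.1 ± 12.9% and 48.9 ± 31.7% (SD, n = 3 each, exact permutation p = 0.30), and regions under 1000 bp, with 52.9 ± 15.8% and 29.1 ± 25.3% (SD, n = 3 each, exact permutation p = 0.20), gave differences of 27.2 and 23.7 points.

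**Figure D3:**
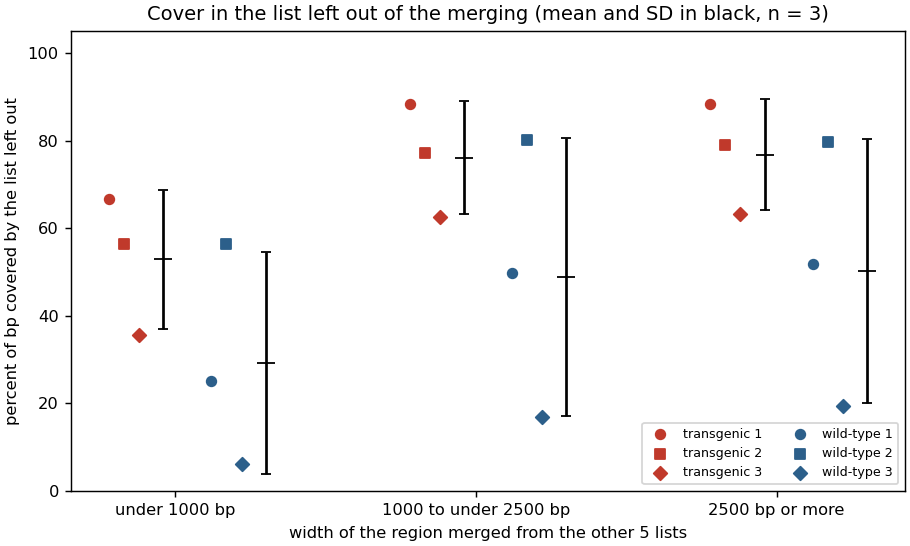
Percent of bases covered in a library, in regions defined from the other 5 lists, by width class. Points are animals, black bars give the mean and SD of each group, and in the widest class the transgenic animals lie at 63.3% to 88.3% and the wild-type animals at 19.4% to 79.6%.

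Long regions lay inside genes more often than shorter ones by share. The midpoint of 109 (66.5%, 95% exact binomial interval 58.7% to 73.6%) was in a protein-coding gene, of 9 in another gene, and of 46 (28%) outside genes. In any gene lay 118 (72.0%, interval 64.4% to 78.7%), against 60% of regions of 1000 to under 2500 bp and 61.8% of shorter ones. These intervals treat regions as independent and cover counting error only. The share did not hold for the widest, since 9 of the 20 regions of 5000 bp or more (45%) had their midpoint in a gene. Of the 44 that overlapped no gene, the nearest gene was 410 bp to 291 kb away (median 17.2 kb), and 22 were over 100 kb from a protein-coding gene.

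Along genes, long regions were most frequent in the part nearest the 3′ end, as other regions were, and both ends had larger shares than in other regions. Strand was known for the host gene of 79 regions, and over 5 equal parts of the gene from start to end they numbered 16, 6, 15, 14 and 28. The last part held 35.4%, against 27.0% of 65627 other regions inside coding genes. The first part held 20.3% against 14.3%, and no interval was computed for these shares. The midpoint was within 5 kb of the 3′ end at 23 (29.1%, others 17.8%) and within 5 kb of the start at 15 (19%, others 9.58%). The host genes were shorter, with a median length of 62.4 kb against 86.3 kb. A window of 1000 bp around a gene end was overlapped by 44 long regions (26.8%) against 17.4% of regions of 1000 to under 2500 bp, but the midpoint, which does not depend on width, lay in such a window at 16 (9.76%) against 12.0%. No long region had its midpoint in a promoter window, where 0.479% of regions of 1000 to under 2500 bp did, so 0 of 164 says little. Overlap, which grows with width, was seen at 9 (5.49%) against 2.91%.

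**Figure D4:**
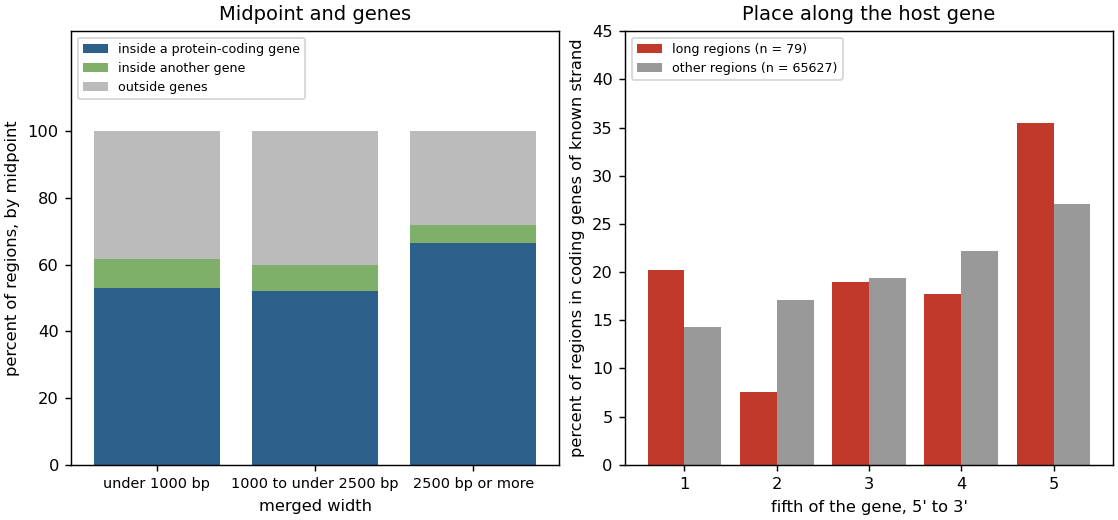
Place of long and other merged regions, with their position along coding genes of known strand. Of the long regions 72.0% had a midpoint in a gene, and the last of 5 equal parts of the gene held 35.4% of those with known strand, against 27.0% of other regions. The first part held 20.3% against 14.3%.

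In all, 141 genes were overlapped, which is 0.300% of 47038 autosomal genes, and 116 of them were protein-coding (0.561% of 20661). Only 5 genes hosted more than 1 long region: Sfi1, a centrin-binding gene, hosted 4, and Tmem267, Plec, Filip1 and Gnas hosted 2 each. No further gene of the 102 hosts had more than 1.

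The widest region covered 9160 bp of Ahnak2, a giant scaffold-protein gene, at chr12:112775691-112784850. Transgenic replicate 1 covered its whole width at a score of 58.9, near the floor, wild-type replicate 3 covered 11.3% at 51.2, and the other 4 lists had no peak. The widest stretch was thus a weak one seen in 2 libraries, 1 of each group. Next came a stretch 8517 bp from the non-coding gene Gm30228 (chr10:27818234-27825930), with scores of 204, 155 and 79.3 in transgenic replicates 1 to 3, 141 in wild-type replicate 2 and no peak in the other wild-type lists. Others of the 10 widest lay in Tmem267 (7067 bp), in the radial spoke gene Rsph3b (6501 bp), in Plec (6253 bp), over Rn18s-rs5 (6246 bp) and outside genes near Vmn1r-ps2, Gm3749, Gm3318 and Gm4735 (6553, 6403, 6255 and 6084 bp).

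At least 80% cover in all 6 lists was reached by Rn18s-rs5, a stretch near Gm9637, Eppk1 and 2700054A10Rik. Some of these, and of the regions with high scores in every list, are multicopy DNA, where reads of near-identical copies cannot be placed with certainty. Rn18s-rs5, a ribosomal RNA copy (chr17:39842822-39849067), was covered to 98.2%, 98.4% and 97.3% in transgenic and 97.4%, 99.5% and 94.0% in wild-type replicates 1 to 3. Its scores were 1068, 1718 and 1201 against 560.2, 1858 and 675 in the same order, with the groups overlapping. A stretch 10513 bp from Gm9637 (chr14:19415606-19419796) had a score of 3100 in every list and a cover of 97.0% or more, and 3100 is a value that 5 to 13 autosomal peaks share in each list, so it ranks no library. High scores in every list did not mean even cover. The 4 regions of Sfi1 lay between 3130699 and 3195321 of chromosome 11. The last of them scored 3100, 1912 and 2905 in transgenic and 1672, 2229 and 1299 in wild-type replicates 1 to 3. Its cover ran from 65.0% to 96.6%. The Sfi1 region at chr11:3149290-3153967 scored 587 to 2095 over the lists, at a cover of 39.2% to 97.05%. Not all Sfi1 regions scored high, since the one at chr11:3141541-3145683, covered to 20.7% to 100%, scored 64.6 to 175. LOC100504180 and Duxf3, which lay 4282 bp apart in the array of Dux genes (germline and early-embryo homeobox factors), scored 606 to 2059 and 529 to 1825 over the 6 lists, at a cover of 58.4% to 96.8% and 39.1% to 97.8%. Near Emid1 (chr11:5167529-5170701) scores ran from 584 in wild-type replicate 3 to 3100 in transgenic replicate 1. Within 3.5 Mb of the start of a chromosome, the centromere side in mice, lay 9 of the 164 long regions, against 0.439% of other regions. These included the 4 Sfi1 regions and a stretch near Pisd-ps1, 24955 bp before them, so they are not all separate places.

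Genes of cytoskeletal linkers, grouped here after their values were seen, carried regions that differed in how evenly the animals were covered. Epiplakin (Eppk1, chr15:76102276-76106097) was covered to 93.8% or more in all 6 lists, with scores of 2302, 1700 and 1037 in transgenic and 683, 1290 and 234 in wild-type replicates 1 to 3. Plectin (Plec) is its neighbour on chromosome 15. The first Plec region (chr15:76172098-76178350) had peaks in 4 lists, with scores of 599 and 72.4 in transgenic replicates 1 and 3 and 269.7 and 61.8 in wild-type replicates 2 and 3. The second Plec region began 62 bp further on and had a peak in transgenic replicate 1 alone, at 137. Envoplakin (Evpl, chr11:116220516-116224329) had no peak in wild-type replicate 3 and scores of 376, 178, 163, 68.0 and 179 in the other 5 lists, transgenic first. Desmoplakin (Dsp, chr13:38194674-38198091), a desmosome protein gene, had a peak in all lists and no single peak of 2500 bp. Its region ended 486 bp from the gene's 3′ end. The region in titin (Ttn), a giant muscle protein gene, ended 5153 bp from the 3′ end of a gene of 278578 bp.

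Large cadherins, also grouped after the values were seen, had 4 members. Fat1 (chr8:44950296-44953631), a tissue-growth cadherin, scored 864, 328 and 244 in transgenic and 215, 333 and 72.2 in wild-type replicates 1 to 3. Celsr1 and Celsr2 are planar cell polarity receptors. Celsr1 (chr15:86029923-86033083) scored 1058, 636 and 474 against 137, 637 and 62.6, and Celsr2 (chr3:108412058-108414978) 1492, 843 and 599 against 183, 872 and 153 in the same order. In Fat1, Celsr1 and Celsr2 wild-type replicate 2 lay above transgenic replicates 2 and 3, so the groups overlapped. Dchs1 (chr7:105753279-105756056), the ligand of Fat4, had peaks in 4 lists and a highest score of 114.

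Of 406 genes named as zinc-finger proteins (Zfp), 8 overlapped a long region (1.97%): Zfp981, Zfp978, Zfp423, Zfp865, Zfp462, Zfp532, Zfp12 and Zfp607a. All protein-coding genes together had 0.561%. Zfp423 (chr8:87779943-87783622), a developmental factor, had peaks in all lists, with scores of 866, 519 and 441 in transgenic and 182, 445 and 110.3 in wild-type replicates 1 to 3. Zfp865 (chr7:5028894-5032432) scored 1451, 698 and 605 against 281, 793 and 87.4. Other zinc-finger factor genes, picked after their values were seen, were Sall1, Sall4, Tshz3, Zfhx3, Bcl11b and Hic1. Sall1 and Tshz3, both developmental factors, had their regions 2579 and 1571 bp from the 3′ end, and Bcl11b, a T-cell factor gene, 4715 bp. Hic1 (hypermethylated in cancer), a repressor gene, scored 465, 136 and 115 against 61.4, 202 and 54.6 (chr11:75165069-75167768).

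Regions in single genes outside these families, picked after their values were seen, were covered least in wild-type replicate 3. Disp1, which releases hedgehog ligands from cells (chr1:183086620-183090090), was covered over its whole width, 94.0% and 89.9% in transgenic and 66.4%, 97.6% and 37.4% in wild-type replicates 1 to 3. Erg, an endothelial transcription factor gene (chr16:95508768-95511314), was covered to 98.1%, 92.9% and 93.4% against 84.9%, 90.2% and 56.1%. Cdk6, a cell-cycle kinase gene (chr5:3435646-3438750), had scores of 679, 438 and 140.4 against 122, 464 and 74.8. At Cdk6 wild-type replicate 2 was above transgenic replicates 2 and 3, and at Disp1 it had the highest cover after transgenic replicate 1.

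The 2 regions of Tmem267, a transmembrane protein gene, lay at opposite ends of it. The one at its start (chr13:119487666-119491020) also covered the start of 3110070M22Rik, whose upstream window held 39 CG, as did 1 upstream window of Tmem267, the most of the 11 promoters. It scored 1434, 763 and 1066 in transgenic and 471, 896 and 434 in wild-type replicates 1 to 3. The wider one (chr13:119595570-119602636) was covered to 26.9%, 99.9% and 54.9% against 12.9%, 59.0% and 66.5%, so transgenic replicate 1, the longest list, covered less of it than 4 other lists.

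Of 31 imprinted genes found by symbol, coding and non-coding, 2 overlapped a long region (6.45%, protein-coding genes 0.561%, all autosomal genes 0.300%). All 31 overlapped some merged region (protein-coding genes 72.6%, all autosomal genes 54.0%). The antisense gene Gnasas1 was not among the 31, and it also overlapped a long region, the first one of Gnas. The Gnas locus, which includes the gene of the stimulatory G protein subunit, had a long region at its annotated start (chr2:174283887-174286834). It holds the promoter window printed above, and which Gnas transcript starts there was not resolved. This region ended 59910 bp from the 3′ end of the locus. The cover of this first region was the whole width, 71.3% and 67.3% in transgenic and 22.7%, 96.9% and 8.48% in wild-type replicates 1 to 3. The second Gnas region (chr2:174298307-174301088) was covered to 99.1%, 96.2% and 94.9% in transgenic and 17%, 70.2% and 10.6% in wild-type lists. By cover each transgenic animal was above each wild-type animal at the second but not at the first. By score the second overlapped, with 423, 134 and 92.0 in transgenic and 50.3, 138 and 54.0 in wild-type replicates 1 to 3. Cdkn1c, which encodes the cell-cycle inhibitor p57, had 1 region (chr7:143458843-143461637), with scores of 429, 294 and 113 against 65.2, 226 and 74.7. There the scores overlapped, while its cover of the whole width, 49.98% and 69.9% in transgenic was above the 18.5%, 44.3% and 17.7% in wild-type lists. Such separation by cover, seen here and at the second Gnas region, was also found at 12.5% of the 87959 autosomal regions. Among the 160 long regions with peaks in at least 3 lists it was found at 11.3%, so it sets neither region apart. Rtl1 was in no list. Its region (chr12:109591900-109594810), which holds the 4 microRNA arms printed above, was covered to 88.8%, 85.0% and 38.3% in transgenic and 29.9%, 99.6% and 0% in wild-type replicates 1 to 3.

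Other gene lists had few members, beside 0.300% of all autosomal genes and 0.561% of protein-coding genes with a long region. At those shares a short list with no member says nothing about its genes. Clustered protocadherins had 8 of 58 members, but all 8 Pcdha genes share 1 region. Olfactory receptors had 0 of 1420, Hox genes 0 of 39, germline genes 0 of 16 and the methylation machinery 0 of 14. Vomeronasal receptors had 2 of 623, of which the pseudogene Vmn2r-ps16 shares its region with Zfp981. MicroRNA genes had 4 of 1103, of which Mir127 and Mir434 share 1 region. Tumour suppressors had 1 of 17, which was Stk11, a metabolic kinase gene whose end shares a region with Cbarp (chr10:80129934-80132479). The 1 of 364 genes found by ribosomal protein names was Rps6ka4, a kinase gene. Marker genes of alveolar type 2, alveolar type 1, airway, endothelial, fibroblast and immune cells overlapped no long region, with 6 to 9 genes per list. DNA capture holds no expression, so the labelled tissue could not be checked by its markers.

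The authors' deposited table of differential regions, a single edgeR and DiffBind fit between the groups, listed 9 of the long regions, with identical spans. Of the 160 long regions that had peaks from at least 3 libraries, 8 were higher in transgenic lungs (5%) in the authors' deposited table, where 0.306% of 87959 autosomal regions were, and 1 was lower (0.625%), where 0.0989% were. Regions of 1500 to under 2500 bp were higher in 5.05% and regions of 500 to under 1000 bp in 0.143% of cases in the authors' deposited table, so listing rose with width and the long regions did not stand apart from the next class. The table is a fit of these same libraries, so it is not independent of the peaks that chose the regions.

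The 8 higher regions had small log2 folds, and the lower one a larger one. In the authors' deposited table the 8 higher regions had log2 folds of 0.34 to 0.66 (median 0.36), against a median of 0.62 over all 269 higher autosomal regions. Their mean read concentration was 7.53 to 8.89 (log2, median 7.89) in the authors' deposited table, against a median of 6.33 for all higher regions. These medians are over regions that already passed the authors' FDR limit of 0.1, so they do not compare all regions of each width. Among the higher regions in the authors' deposited table, those under 500 bp had a median log2 fold of 1.62 at a median concentration of 3.53.

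The higher regions lay in 3 genes and 5 stretches outside genes. Bcl11b (chr12:107915118-107917807) had the highest log2 fold, 0.66 (FDR 0.0312), and contained a CpG island in the authors' deposited table. Its scores were 2240, 1202 and 671 in transgenic and 274, 779 and 104 in wild-type replicates 1 to 3, where wild-type replicate 2 was above transgenic replicate 3. Sorcs2, a sorting receptor gene (chr5:36237554-36240157), had a log2 fold of 0.61 (FDR 1.04e-05) in the authors' deposited table. Its scores were 1488, 997 and 534 against 315, 636 and 99.3, with the same overlap. Fgf12, a fibroblast growth factor homologous gene (chr16:28292775-28295671), had a log2 fold of 0.34 (FDR 0.0206) in the authors' deposited table. The widest higher region, 5453 bp near Gm6463 on chromosome 8 (chr8:52303478-52308930), had a log2 fold of 0.38 (FDR 1.04e-05) in the authors' deposited table. It was covered to 95.1% or more in 5 lists and had no peak in wild-type replicate 3. The remaining 4, near Rpl17-ps10, Gm32412, A330102I10Rik and Gm19062, had log2 folds of 0.34 to 0.36 and FDR from 6.71e-05 to 0.0850 in the authors' deposited table.

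The lower region held Gm10925 (chr1:24613065-24615583), a pseudogene copy of the mitochondrial gene mt-Atp6 in the nuclear genome. Its reads cannot be told from those of mitochondrial DNA where the copies match. It had a log2 fold of -2.35 (FDR 0.0747) in the authors' deposited table. Peaks were present in transgenic replicate 2 (score 60.4, cover 18.9%), wild-type replicate 1 (146, 99.7%) and wild-type replicate 3 (66.7, 27.0%) alone. The longest list, transgenic replicate 1, had no peak there.

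**Figure D5:**
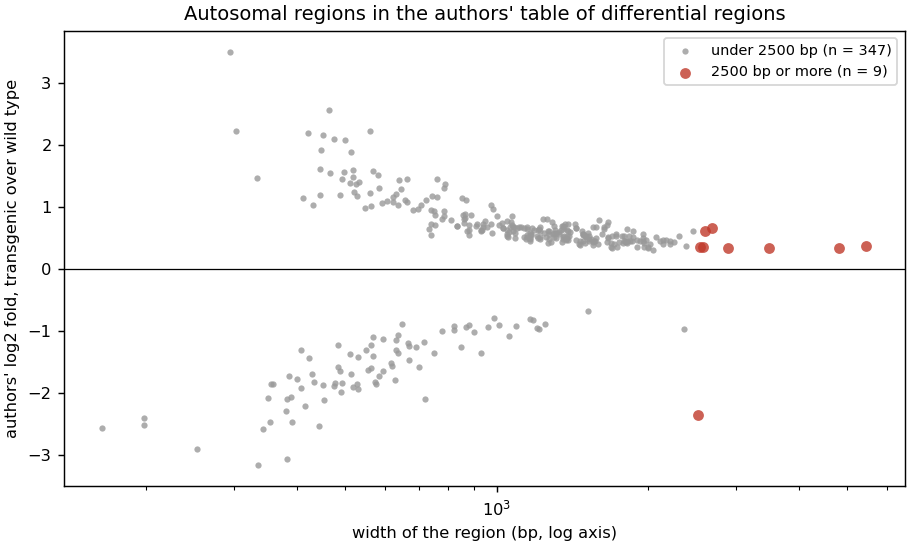
Log2 fold, transgenic over wild type, of the autosomal regions in the authors' deposited table against region width. The 8 higher long regions lie at 0.34 to 0.66 and the lower one at -2.35, and the median of higher regions goes from 1.62 under 500 bp to 0.36 at 2500 bp or more.

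Complete separation of the 2 groups was no more common in long regions than elsewhere. More bases were covered in every transgenic than in every wild-type list at 18 of the 160 regions (11.3%), against 12.5% of the 87959 autosomal regions, and the reverse was seen at 0 against 0.0318%. By highest score the counts were 19 (11.9%, background 13.8%) and 1 (0.625%, background 0.0591%). The 1 lay near Gm3749 (chr16:3231503-3237905), with scores of 50.2, 0 and 0 in transgenic and 89.0, 54.9 and 82.7 in wild-type replicates 1 to 3, but by cover transgenic replicate 1 was highest there, at the whole width against 53.0%, 35.4% and 9.14% in wild type. Peaks of all 3 transgenic animals but of no wild-type animal were found at 3 of the 160 regions (1.88%), against 3.32% of the 87959 autosomal regions, and 2 of the wild-type lists were the shortest of the 6. They lay in Ank3, an ankyrin gene, in the transcription factor gene Nfix and near Gm52862, with transgenic scores from 55.3 to 201.

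At the width limit, the 3 narrowest members were LOC100504180 (2514 bp), Pde1c, a phosphodiesterase gene (2512 bp), and a stretch near Tmem64 (2508 bp). The next below, in Sart3, near BC048507 and in Gm11620, measured 2499, 2497 and 2492 bp, so the limit divides regions of like width.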

How the data were processed

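MBD-seq libraries of 6 mouse lungs were deposited as 1 peak list each. The submitters' processing notes name Bowtie, DiffBind, edgeR and the build mm10, without versions. Peak names are those MACS writes, and its version and settings, like the normalization of read concentrations, were not given in the sources used here. Each deposited peak score is the authors' caller's value, unscaled between libraries. The authors' deposited table gives log2 concentrations and log2 folds, and each p-value and FDR was computed by the authors, per the file headers. Peak starts are printed 1-based.

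Peaks were merged per chromosome, and long regions were taken from the merged set. Genes came from a RefSeq table of GRCm38.p6. Strand was known for 25747 of 47038 genes, and exons and introns were not resolved. Tested regions were taken as the 87959 merged autosomal regions where at least 3 lists had peaks. Held-out cover was compared by two-sided exact permutation over 20 splits, in Python 3.11.15 with scipy 1.17.1, pandas 2.3.3 and numpy 2.4.6. The merging was tested on simulated data, where 200 of 200 planted long regions among 20200 were found. Each planted region was covered over its whole width by some list, so the joining of shorter peaks was not tested. Regions were named by a rule: the 10 widest, the 6 with the highest lowest score, those covered to 80% in all lists, those in the authors' deposited table, the 6 widest at coding gene ends, genes with most long regions, up to 4 members per list, and 3 on each side of the width limit. The result of 1 gene list is not reported here. Other regions in the text were picked after their values were seen. Regions and lists were chosen with earlier results of these data known. Alternatives were other widths, gaps, score limits, equal list lengths, gene windows, a replicate block and leaving out each library. Read depth is unknown, p-values measure the spread between these animals, and binomial intervals cover counting error only.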

Additional observations from a re-analysis of the deposited data

How the results depend on the processing

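The count of long regions followed the rule: 492 at 2000 bp or more, 87 at 3000, 20 at 5000, and 252 when gaps of up to 200 bp were joined. It was 115 to 164 without any 1 library, lowest without transgenic replicate 1. The difference in held-out cover was 11.1 to 41.2 points when the value of any 1 library was dropped (exact permutation p from 0.20 to 0.60). It was positive in all 11 alternatives, of which the replicate block keeps the main difference by construction. With the 28399 top-scoring peaks of each list alone, the difference was 22.5 points (exact permutation p = 0.30). Equal list lengths are not equal read depths. The share with a midpoint inside a gene was 67.0% to 72.5% without any 1 library and 45% at 5000 bp or more. The share over a gene end was 20.1% with a 500 bp window, 34.8% with 2000 bp and 17.1% for protein-coding genes alone. The authors' deposited table listed 24 regions at 2000 bp or more and 1 at 5000. It listed 7 to 9 when regions were rebuilt without any 1 library, with the authors' fit to all libraries kept. With the replicate number as a block the held-out difference was 26.5 points (exact permutation p = 0.50). Same-numbered libraries did not deviate together more than others (correlations of percent covered -0.08, 0.06 and -0.02 over 87959 regions, others -0.08 to 0.09). By score rank they were -0.05, 0.05 and 0.05, others -0.10 to 0.07. Such correlations of peaks cannot show whether the numbers pair the animals, and the labels state no pairing. Depth is unknown, so a missing peak in a short list is not shown to be missing methylation.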

Other observations

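Long regions were also present on the sex chromosomes by the same width rule. Chromosome X had 7 among 5752 merged regions, the widest of 3716 bp, and chromosome Y had 4 among 2166, the widest of 5296 bp.

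The order of libraries by median score was kept in full at 60 of the 164 autosomal long regions. Of the others, 4 picked after their values were seen are given here. In the non-coding gene 2700054A10Rik (chr17:13550393-13553394) scores were 1145, 1565 and 788 in transgenic and 1871, 217 and 2481 in wild-type replicates 1 to 3, so the shortest list had the highest score. At Gm20590 (chr13:74528374-74530927) they were 624, 976 and 522 against 1143, 131 and 1110. In both, wild-type replicate 2 was lowest and the other wild-type lists highest. A stretch near Gm41989 (chr3:6297409-6302825) had a peak in wild-type replicate 1 alone (score 116), and one in Atp6v1h, a proton pump gene, in transgenic replicate 2 and wild-type replicate 2 alone (188 and 181).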
